A study of Mus musculus with 16 samples.

Results

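The nuclear genes of mitochondrial complex I were described in gastrocnemius, the large calf muscle, of Eif6 heterozygous mice (Het, 1 functional copy of Eif6 in every tissue) and wild-type littermates (WT). They were taken as every gene on the array whose name starts with Nduf, which gave 45 genes measured by 59 probes, out of 34650 gene names and 55681 probes. The probe with the highest mean signal stood for each gene. The groups were WT and Het whole muscle (3 arrays each), WT and Het polysomes (3 arrays each, RNA that carries several ribosomes, pooled from a sucrose gradient) and WT and Het monosomes (2 arrays each, RNA that carries 1 ribosome). All mice were untreated male C57BL6 mice of 8 to 16 weeks, 3 per genotype, and each mouse gave every RNA kind in which its replicate number appears. The monosome arrays were replicates 1 and 2 of WT and replicates 1 and 3 of Het. A lower signal in a bulk muscle sample can come from fewer cells of a type or from less RNA per cell, and these cannot be told apart.

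Complex I is the entry point of the respiratory chain: it oxidises NADH, passes the electrons along a row of iron-sulfur clusters to ubiquinone, and pumps protons across the inner mitochondrial membrane. Its peripheral arm reaches into the matrix and holds the core subunits encoded in the nucleus, its membrane arm is built around subunits encoded in mitochondrial DNA, and accessory subunits surround both. Assembly factors join the parts and are not in the finished complex. The Nduf messages are translated on cytosolic ribosomes, and the ND messages of mitochondrial DNA on ribosomes inside the organelle. Muscle fibres that rely on respiration are rich in all of them. Of the 45 genes, 7 were core subunits, 10 were accessory subunits of the peripheral arm, 19 were accessory subunits of the membrane arm, 7 were assembly factors (Ndufaf1 to Ndufaf7), and 2 (Ndufa4 and Ndufa4l2) carry the name but are not placed in the mature complex here.

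All 45 genes were expressed in every group. On all 16 arrays 44 of them were well above background, and Ndufaf4 was so on 15. The chosen probes of 42 genes carried an accession that matched a RefSeq mouse transcript. Values below are log2 signals after quantile normalization. A difference is Het minus WT, a ratio is the log2 signal of one RNA kind minus that of another in the same mouse, and loading is the polysome ratio to whole muscle. Calls are given at the study's threshold, an absolute log2 difference above 1 with an unadjusted limma p under 0.05, and at a Benjamini-Hochberg adjusted p under 0.05 over all probes tested (19812 for whole muscle and polysomes, 20250 with monosomes). The study stated that threshold for its polysome analysis, and called whole-muscle genes by significance analysis of microarrays at a false discovery rate cutoff. Here the threshold is applied to every comparison.

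Some features of the arrays touch the results. Eif6 itself was lower in Het by 0.92 in whole muscle, 1.31 in polysomes and 1.82 in monosomes on the log2 scale, with no overlap between genotypes (limma adjusted p = 0.36, 0.193 and 0.0451). All 10 fast-fibre muscle markers were well above background on every array. WT polysome 2 and WT monosome 2 stood apart. In 1168 pairs of probes on one transcript, the median 5′ minus 3′ log2 signal was 0.60 and 0.82 on these arrays and between -1.35 and -0.79 on the other 14. The 75th percentile of signal, taken as brightness, was 13.5 to 33 scanner units on Het whole-muscle arrays and 42.3 to 150 on WT whole-muscle arrays, so brightness and genotype cannot be told apart in whole muscle and in loading. On Het polysome arrays brightness was 63.1 to 106. Brightness and RNA kind therefore cannot be told apart in the Het polysome ratios to whole muscle. The arrays lay on 2 slides, each with 1 monosome array per genotype. Slide 1 held 1 WT and 2 Het whole-muscle arrays and 2 WT and 1 Het polysome arrays, and slide 2 held 2 WT and 1 Het whole-muscle arrays and 1 WT and 2 Het polysome arrays. A difference within 1 slide therefore has at least 1 arm of a single array, assumed to vary like the other groups, and a polysome ratio to whole muscle within 1 slide sets different mice against each other. Of the blood cell markers, 5 of 5 were lower in Het polysomes (summed log2 level 13.3 to 13.8 in Het and 14.4 to 15.4 in WT), as were 7 of 7 tested immune cell markers (10.7 to 11.9 against 11.9 to 12.9). In monosomes 5 of 5 blood markers (13.9 to 14.1 in Het against 14.2 to 15.7 in WT) and 7 of 7 immune markers (11.3 to 11.8 against 12.7 to 12.8) were lower in Het, with medians of -1.16 and -1.36. In whole muscle 6 of 7 immune markers were lower (11.2 to 11.6 against 11.4 to 12.5, median -1.20) and 2 of 5 blood markers were (13.6 to 13.8 against 13.3 to 14.0, median 0.08). The part of either list in the results below was not tested.

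The first comparison asked where the Nduf messages sat in WT and Het muscle, by setting the polysome signal against the whole-muscle signal of the same mouse. The mean ratio was above 0 for most Nduf genes in both genotypes, and a part of them passed a test. In WT mice the ratio was above 0 for 34 of 45 genes (75.6%, against 51.9% of all probes), with a median of 0.57 against 0.04 over all probes tested. In Het mice it was above 0 for 39 of 45 (86.7%, against 58.2%), with a median of 0.49 against 0.13. At an adjusted p under 0.05, 18 Nduf genes were higher and 1 was lower in WT polysomes (40% and 2.22% of the members, against 10.4% and 10.7% of all probes). In Het, 9 were higher and none was lower (20% and 0%, against 3.29% and 4.04%). At an unadjusted limma p under 0.05, 21 were higher and 3 lower in WT (46.7% and 6.67%, against 20.1% and 18%), and 22 were higher and 1 lower in Het (48.9% and 2.22%, against 16.8% and 12.4%). At the study's threshold 12 were higher and 1 was lower in WT (26.7% and 2.22%, against 8.62% and 12.2%), and 4 were higher and none was lower in Het (8.89% and 0%, against 7.79% and 5.91%). All probes include dim ones. With only probes well above background on every array tested, 21 Nduf genes had an adjusted p under 0.05 higher and 3 lower in WT. The shares of those probes were 21.2% and 17.9%. In Het the counts were 18 and 0 (against 10.1% and 12.2%). The median over the 45 genes was 0.73, 0.61 and 0.49 in WT mice 1 to 3 and 0.56, 0.47 and 0.53 in Het mice 1 to 3. Every mouse therefore had a positive median, and the genotypes overlapped.

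Ndufb3, a small subunit of the membrane arm, had the highest mean ratio over the 6 mice, 1.43, with 1.92, 1.28 and 1.41 in WT and 1.51, 1.07 and 1.39 in Het. Ndufa5, an accessory subunit of the peripheral arm, followed with a mean of 1.40 (1.92, 0.87 and 1.77 in WT, 1.42, 1.23 and 1.17 in Het). Its rank rests on the probe used. The other tested Ndufa5 probe gave 0.54, 0.55 and 1.20 in WT (mean 0.76, below the threshold) and 0.98, 0.97 and 1.18 in Het. Ndufb7, a cysteine-rich subunit on the intermembrane-space side, averaged 1.23 (1.42, 1.80 and 1.36 in WT, 1.15, 0.82 and 0.86 in Het). These genes were above 0 in all 6 mice. Ndufs5, a membrane-arm subunit, was steady, at 1.29, 0.97 and 1.11 in WT and 1.01, 1.05 and 1.07 in Het, and passed the study's threshold in both. The WT means of Ndufa13, Ndufa1 and Ndufa4l2, of 1.44, 1.14 and 1.13, passed it too, with adjusted p of 0.00942 to 0.0175 in limma. In total 24 genes were above 0 in all 6 mice, and Ndufs8 and Ndufaf4 were below 0 in all 6.

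Among the core subunits, Ndufv1, which binds NADH and the flavin, Ndufs7, which holds an iron-sulfur cluster, and Ndufs3 of the peripheral arm had mean ratios of 0.75 to 0.77. Ndufs3 was the steadiest of the 7 core subunits, at 0.80, 0.68 and 0.70 in WT and 0.72, 0.82 and 0.87 in Het, with limma adjusted p of 0.0361 in WT and 0.0491 in Het. Ndufs8, an iron-sulfur subunit of the peripheral arm, went the other way: its ratio was -2.40, -0.58 and -1.52 in WT and -0.64, -0.64 and -0.05 in Het. The WT mean of -1.50 was the lower call (limma adjusted p = 0.0279), and it came to -1.05 when WT mouse 1 was left out and to -1.96 when WT mouse 2 was. Ndufaf4, an early assembly factor, had -0.39, -1.26 and -0.70 in WT and -0.62, -0.47 and -0.94 in Het, and the nucleoside kinase-like subunit Ndufa10 had the third lowest mean, -0.39. Assembly factors were the role group with the lowest median in both genotypes, -0.14 in WT and 0.14 in Het, beside 0.58 and 0.70 for the core subunits, 0.85 and 0.64 for accessory subunits of the peripheral arm and 0.59 and 0.43 for those of the membrane arm.

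The counts with an adjusted p rested on few mice and on the scaling. With arrays scaled to their 75th percentile, 8 genes were higher in WT and 2 in Het (against 11.2% and 3.59% of all probes), with medians of 0.30 and 0.14. With array brightness as a term, 3 genes were higher in WT and 0 in Het (against 1.05% and 0% of all probes). With slide as a term the counts were 12 higher in WT and 0 in Het (against 5.48% and 0.419%), and within 1 slide, with its arms of a single array, both were 0. Leaving out 1 mouse gave 5 adjusted calls in WT without WT mouse 1, when 2.57% of all probes were called higher and 5.41% lower, and 4 without WT mouse 3 (against 0.752% and 3.08%). In Het it gave none whichever mouse was left out, and at most 0.00505% of all probes were called. No mouse had its polysome and whole-muscle arrays on the same slide.

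**Figure D1:**
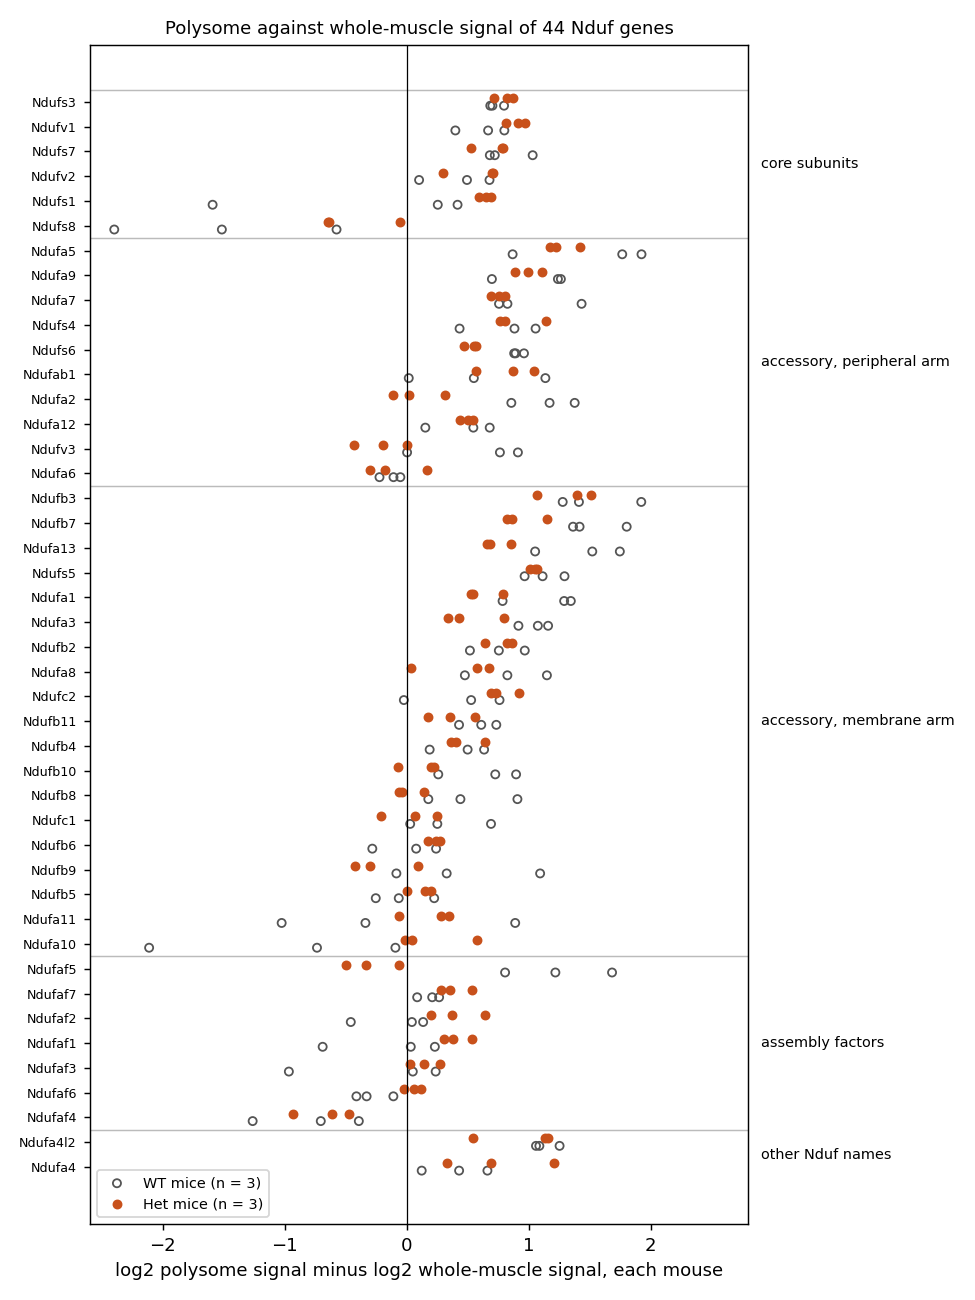
Log2 polysome signal minus log2 whole-muscle signal of 44 Nduf genes, 1 point per mouse (open, 3 WT; filled, 3 Het), grouped by role and ordered by the mean of the 6 mice within each group. Ndufb3, Ndufa5 and Ndufb7 lie furthest right, Ndufs8 and Ndufaf4 lie left of 0 in all 6 mice, and Ndufaf5 has its 3 Het points left of 0 and its 3 WT points right of it.

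The other complex I genes gave a contrast. Of the 7 complex I messages of mitochondrial DNA (ND1 to ND6 with ND4L), 6 were lower in WT polysomes than in WT whole muscle at an adjusted p under 0.05, with a median ratio over the 7 of -3.54, and 2 (ND1 and ND3) were lower in Het, with a median of -1.76. ND1, a membrane-arm core subunit, had ratios of -6.41, -5.94 and -3.94 in WT and -3.69, -2.01 and -3.22 in Het. ND4 had -4.72, -7.12 and -3.61 in WT and -2.53, -1.92 and -3.14 in Het. ND6, the only one of the 7 encoded on the other strand of mitochondrial DNA, was the exception in direction at 1.87, 0.61 and 0.35 in WT and -0.04, -0.04 and 0.21 in Het. In every mouse the median of the 7 lay below the median of the 45 Nduf genes, at -4.91 to -1.26 against 0.47 to 0.73. Of the 12 listed assembly factors without an Nduf name, 9 were tested. Timmdc1 was higher in WT polysomes (0.86, limma adjusted p = 0.0386), and Tmem126b (-1.37, limma adjusted p = 0.0112) and Tmem70 (-1.33, limma adjusted p = 0.0384) were lower. None of the 9 passed in Het, and Tmem126b was at 0.00 there. Of 37 tested nuclear genes of complexes II to V, 14 were higher and none was lower in WT polysomes at an adjusted p under 0.05, with a median of 0.63 in WT and 0.55 in Het, near the Nduf medians.

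**Figure D2:**
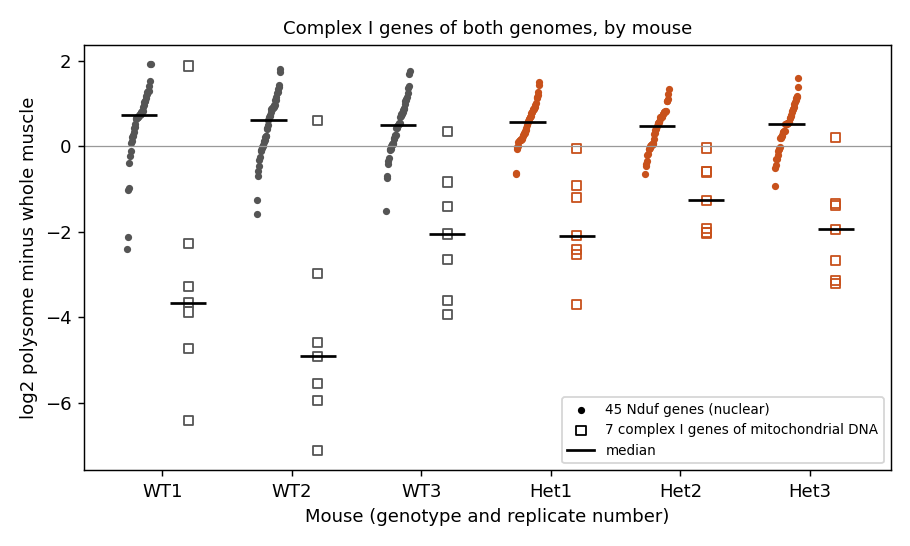
Log2 polysome signal minus log2 whole-muscle signal in each of the 6 mice, for the 45 Nduf genes (dots, sorted within a mouse) and 7 complex I genes of mitochondrial DNA (squares), with medians as bars. The Nduf medians lie between 0.47 and 0.73, and those of the mitochondrial genes between -4.91 and -1.26.

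The second comparison asked whether the level of the Nduf messages in whole muscle differed between genotypes. No Nduf gene passed the study's threshold (against 1.99% higher and 3.64% lower of all probes), none had an unadjusted limma p under 0.05 (against 3.17% and 5.28%), none had an adjusted p under 0.05 (against 0.00505% higher and 0.00505% lower), and the methods' t-test also called 0 at the study's threshold. The study used that threshold for polysomes and another method for whole muscle, so these counts do not test its whole-muscle calls. The differences ran from -0.29 for Ndufa10 to 0.66 for Ndufaf5, which was 0.27 without Het whole muscle 3. They were above 0 for 37 of 45 genes (82.2%, against 46.2% of all probes), with a median of 0.13 against -0.03. The nuclear genes of complexes II to V were close to this, with 30 of 37 above 0 and a median of 0.12. The Nduf median was 0.05 (-0.04 over all probes) without WT whole muscle 1 and between 0.11 and 0.16 without any other array. With array brightness as a term the median was 0.04, with 24 genes above 0, and lay below the 0.07 of all probes. With 75th percentile scaling it was 0.28 against 0.06. On slide 1, with 1 WT array, it was 0.01 against -0.09, and on slide 2, with 1 Het array, 0.22 against 0.07. Immune cell markers moved the other way in whole muscle, as given above. Slow-fibre markers were above 0 in 6 of 7 (median 0.14) and fast-fibre markers in 5 of 10 (median -0.03). The slow-fibre median was 0.61 without WT whole muscle 2 and -0.36 without WT whole muscle 3. The part of these lists was not tested.

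Genotypes did not overlap for 5 genes, 3 higher (Ndufb10, Ndufb9 and Ndufa6) and 2 lower (Ndufa10 among them), which is 6.67% and 4.44% of the members against 5.09% and 8.46% of all probes. These names were given after their values were seen. Among the core subunits, Ndufs8 differed by -0.02 and Ndufv2 by 0.15. Ndufs4, an accessory subunit of the peripheral arm whose loss causes Leigh syndrome, was 11.97, 11.92 and 12.25 in WT and 12.37, 12.38 and 11.90 in Het, a difference of 0.17 with overlapping genotypes. Ndufb10 (0.30) and Ndufa9 (0.30) followed Ndufaf5 among the highest, and Ndufa4l2 (-0.12) was the third lowest. The smallest exact permutation p for 3 against 3 is 0.1.

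The third comparison set polysome RNA of Het against that of WT. At the study's threshold 2 Nduf genes were higher, Ndufs1 and Ndufs8, both core iron-sulfur subunits, and none was lower (4.44% and 0% of the members, against 4.2% and 1.55% of all probes). At an unadjusted limma p under 0.05 the count was 7 higher and 5 lower (15.6% and 11.1%, against 10.3% and 4.84%). No gene had an adjusted p under 0.05 in this comparison, among the members or among all probes (0%). The differences ran from -0.88 (Ndufaf5) to 1.05 (Ndufs1), with 25 of 45 above 0 (55.6%, against 53% of all probes) and a median of 0.15 against 0.05. Without Het polysome 1 the median was 0.05 against 0.04, and without WT polysome 2 it was 0.08 against 0.03. The count at the threshold was 1 higher without Het polysome 1 (against 3.36% of all probes) or Het polysome 2 (against 2.17%), and 3 higher and 1 lower without WT polysome 3 (against 8.68% and 2.81%). This count was 1 higher and 1 lower without Het polysome 3 (against 4.67% and 3.03%) or WT polysome 1 (against 7.97% and 2.13%).

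Ndufs1, the large subunit that carries several of the iron-sulfur clusters, was 12.17, 10.49 and 12.32 in WT polysomes and 12.73, 12.75 and 12.65 in Het. The difference was 1.05 (SE 0.40, limma p = 0.0227, adjusted p = 0.281, exact permutation p = 0.1). The 3 Het arrays were close together and above every WT array, and WT polysome 2 was far below its group; without it the difference was 0.46. Ndufs8 was 8.14, 10.01 and 8.99 in WT and 9.91, 9.95 and 10.38 in Het. Its difference was 1.03 (SE 0.38, limma adjusted p = 0.275) and the genotypes overlapped. Leaving out WT polysome 1 gave 0.58 and leaving out WT polysome 2 gave 1.51. Neither passed in the authors' table (0.98 and 0.98), with normexp background correction (0.99 and 0.92) or by the methods' t-test. With slide as a term Ndufs8 passed (1.01) and Ndufs1 did not (0.97). Within slide 1, where the only Het array was set against WT polysomes 1 and 2, Ndufs1 differed by 1.40 and Ndufs8 by 0.83, and within slide 2, where WT polysome 3 was the only WT array, by 0.38 and 1.17.

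Ndufa10 was the third highest, at 8.61, 10.62 and 9.69 in WT and 10.23, 10.46 and 10.90 in Het (difference 0.89, SE 0.41, limma adjusted p = 0.334). The difference was 0.37 without WT polysome 1 and 1.38 without WT polysome 2. The core subunits Ndufv1, Ndufv2, Ndufs3 and Ndufs7 differed by 0.32, 0.30, 0.17 and -0.02. The assembly factors were mostly above 0 (6 of 7, median 0.45). Ndufaf1, which helps build the membrane arm, was 8.48, 7.89 and 8.74 in WT and 9.30, 9.20 and 9.12 in Het (0.84, SE 0.25, limma adjusted p = 0.243), and Ndufaf2 (0.54) and Ndufaf6 (0.53) also had an unadjusted p under 0.05 and no overlap. Another of the 7 higher genes was the membrane-arm subunit Ndufc2, at 0.55.

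The 5 lower genes were small accessory subunits. Ndufa2, a thioredoxin-like subunit of the peripheral arm, was 14.45, 15.04 and 14.06 in WT and 13.91, 13.69 and 13.56 in Het, a difference of -0.79 (SE 0.26, limma adjusted p = 0.26) with no overlap. Ndufa13, known also as GRIM-19, was 15.78, 16.25 and 15.32 in WT and 15.30, 15.13 and 15.06 in Het (-0.62, SE 0.24, limma adjusted p = 0.286), and its difference was -0.38 without WT polysome 2. Ndufa3 (-0.56), Ndufb7 (-0.55) and Ndufa1 (-0.47) made up the rest, and all of these but Ndufa2 belong to the membrane arm. Over all 45 genes, no overlap was found for 13 higher and 4 lower in Het (28.9% and 8.89%, against 13.2% and 8.6% of all probes). Ndufs4 was 13.02, 12.36 and 13.13 in WT and 13.18, 13.14 and 13.04 in Het, a difference of 0.28 with overlapping genotypes, or 0.04 without WT polysome 2.

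The polysome difference was lower for genes with brighter probes. Across the 45 genes its Spearman correlation with mean level was -0.67, and that of the loading difference was -0.68, against -0.07 and -0.23 across all probes tested. These describe genes measured on the same arrays, which are not independent replicates. Signals of different probes also depend on the probe, so this is no order of RNA levels. The ratios of single mice had correlations with mean level of 0.46, 0.52 and 0.37 in WT mice 1 to 3 and 0.10, 0.18 and -0.04 in Het mice 1 to 3.

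**Figure D3:**
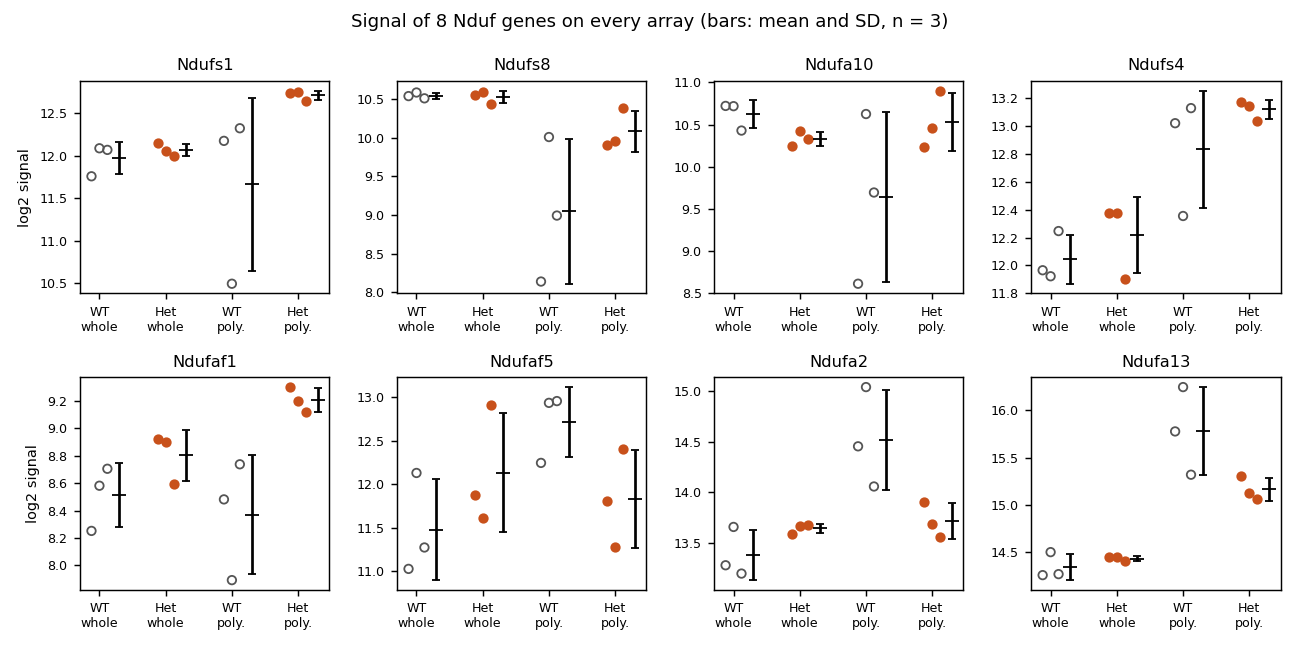
Log2 signal of 8 Nduf genes on each whole-muscle and polysome array (open, WT; filled, Het; replicates 1 to 3 from left to right), with mean and SD (n = 3) beside the points; the vertical scale differs between panels. In Ndufs1 the Het polysome arrays lie between 12.65 and 12.75 and WT polysome 2 at 10.49, and in Ndufa2 the Het polysome arrays lie below all WT polysome arrays.

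The fourth comparison set the loading of Het mice against that of WT mice. By the study's threshold 2 Nduf genes were lower in Het, Ndufaf5 and Ndufa2, and none was higher (4.44% and 0% of the members, against 7.19% lower and 6.75% higher of all probes). Blood cell markers were lower in 4 of 5 (median -1.10, 2 past the threshold), with median ratios of 0.46, 2.33 and 0.50 in WT mice and 0.24, -0.35 and 0.14 in Het mice. Fast-fibre markers were above 0 in 7 of 10 (median 0.29, 3 higher past the threshold), and the part of either list was not tested. The differences were above 0 for 24 and below 0 for 21 genes (53.3% above 0, against 60.1% of all probes), with a median of 0.03 against 0.17 over all probes. The median was -0.14 with 75th percentile scaling. Taken unpaired within 1 slide, between arrays of different mice, it was 0.14 on slide 1 and -0.20 on slide 2. No overlap was found for 8 genes higher and 8 lower (17.8% each, against 13.6% and 11.7%). At an unadjusted limma p under 0.05 the same 2 genes were lower and none was higher (4.44% and 0%, against 8.72% and 8.16%). No gene had an adjusted p under 0.05, among the members or all probes (0%). The count at the threshold was 1 lower without Het mouse 3 (against 6.49% of all probes), 2 higher and 1 lower without WT mouse 2 (against 7.2% and 6.92%), and 1 higher and 3 lower without WT mouse 3 (against 7.83% and 7.47%).

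Ndufaf5, an enzyme that hydroxylates the core subunit Ndufs7 during assembly, had loading of 1.22, 0.81 and 1.68 in WT and -0.07, -0.34 and -0.50 in Het. All WT values were above 0 and all Het values below it. The difference was -1.54 (SE 0.34, limma p = 0.00249, adjusted p = 0.11, exact permutation p = 0.1), and it stayed between -1.75 and -1.31 when any 1 mouse was left out. The unpaired values within 1 slide, between arrays of different mice and with arms of 1 array, were -1.77 on slide 1 and -1.41 on slide 2. It arose from both kinds of RNA: in whole muscle the gene was 11.03, 12.13 and 11.27 in WT and 11.88, 11.61 and 12.90 in Het, and in polysomes 12.24, 12.93 and 12.95 in WT and 11.81, 11.28 and 12.40 in Het, overlapping in each. Ndufa2 loading was 1.17, 1.38 and 0.86 in WT and 0.32, 0.02 and -0.12 in Het, a difference of -1.06 (SE 0.30, limma adjusted p = 0.158). It was -0.93 once slide entered the fit, -0.85 in the authors' table, and -0.62 once array brightness did, all short of the threshold. Ndufv3, a small subunit near the flavin site, was the third lowest at -0.77 and its genotypes overlapped.

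Ndufa10 had the highest loading difference, 1.18 (SE 0.54, limma adjusted p = 0.324). Its ratios were -2.11, -0.09 and -0.74 in WT and -0.01, 0.04 and 0.58 in Het, so the genotypes did not overlap while WT spread over more than the difference. It was 0.62 without WT mouse 1 and 1.63 without WT mouse 2. Ndufs8 followed at 1.05 with overlap and Ndufs1 at 0.95, the latter with WT ratios of 0.42, -1.59 and 0.25 and Het ratios of 0.59, 0.69 and 0.65. Ndufs8 was 0.60 without WT mouse 1, and Ndufs1 was 0.31 without WT mouse 2, whose polysome array stood apart. The core subunits Ndufv1, Ndufv2, Ndufs3 and Ndufs7 lay at 0.28, 0.14, 0.08 and -0.11, and Ndufs4 lay at 0.11. By role, 6 of 7 core subunits and 6 of 7 assembly factors were above 0 (medians 0.28 and 0.34), as were 4 of 10 peripheral accessory and 7 of 19 membrane accessory subunits (medians -0.16 and -0.23), and the difference between roles was not tested. Without WT mouse 2 these counts were 5, 5, 1 and 7, with medians of 0.16, 0.27, -0.19 and -0.22. The nuclear genes of complexes II to V had a median of -0.03, with 2 of 37 lower and none higher at the threshold. The complex I messages of mitochondrial DNA had a median of 1.78, with 4 of 7 higher at the threshold (against 6.75% of all probes). Without WT mouse 2 the median was 1.09 with 2 higher, and without WT mouse 3 it was 2.52 with 6 higher and 1 lower.

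Probes of the same gene did not always give the same value. Of the 12 Nduf genes with more than 1 probe, 10 had more than 1 tested. In loading the probes differed in sign for 4 of these (Ndufa5, Ndufab1, Ndufb11 and Ndufb5), from -0.32 to 0.28 apart from Ndufb11, whose probe at base 1 of the transcript gave 1.76 (SE 0.99) and whose used probe gave -0.23. Ndufaf4 gave 0.11 with its used probe at base 677 and 1.18 with one at base 1767, where the ratios were -2.14, -3.51 and -1.74 in WT and -1.54, -1.08 and -1.24 in Het. In whole muscle the signs differed for 4 genes (Ndufa5, Ndufab1, Ndufb11 and Ndufb2), with Ndufb2 at 0.07 and -0.09. Probes of Ndufv3 differed in sign in every comparison with monosomes: in Het minus WT monosomes the used probe gave 0.73, the one at base 1164 gave -1.33 and the one at base 213 gave -0.85. Both Ndufb6 probes were higher in Het monosomes, by 1.52 at base 274 (the used probe) and by 1.03 at base 450, and the second had a limma adjusted p of 0.106. For Ndufaf5 the other 2 probes were well above background on 3 and 0 of 16 arrays, so its value rests on 1 probe. Whether splice form, hybridisation or RNA integrity moves with these differences was not tested. The sequences of probes on which the loading and monosome results turn are given 5′ to 3′ as deposited, in lower case with no part marked.
Ndufa10 A_51_P272123: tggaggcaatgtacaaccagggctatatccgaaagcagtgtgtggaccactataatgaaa
Ndufaf5 A_55_P2138343: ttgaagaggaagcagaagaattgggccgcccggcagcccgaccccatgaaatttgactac
Ndufb6 A_52_P210338: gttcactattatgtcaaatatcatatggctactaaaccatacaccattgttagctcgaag
Each probe has 60 bases, with a G and C content of 45%, 55% and 35% in that order. Positions are those of the array design on mm9. The Ndufa10 probe lies at chr1:94361039-94363996 and the Ndufb6 probe at chr4:40219858-40224715, both on the minus strand, and these spans of 2958 and 4858 bases are longer than the probe, so each crosses at least 1 exon boundary. The Ndufaf5 probe lies at chr2:139996598-139996657 on the plus strand within 1 exon block, 216 bases into its transcript.

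**Figure D4:**
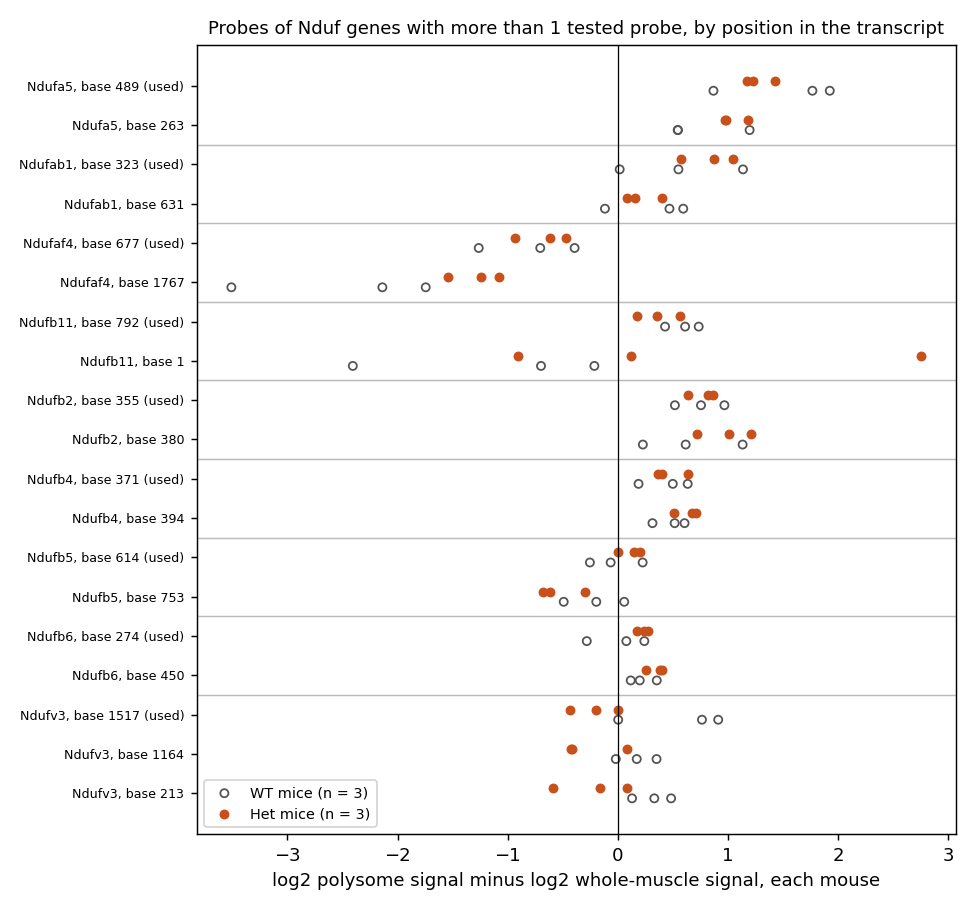
Log2 polysome signal minus log2 whole-muscle signal of each mouse (open, 3 WT; filled, 3 Het) for every tested probe of 9 Nduf genes with more than 1 tested probe, labelled by the first base of the probe in its transcript. Both Ndufaf4 probes have all 6 mice below 0, and with the probe at base 1767 the 3 WT mice lie left of the 3 Het mice.

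The last comparisons used the monosome arrays, 2 per genotype, so each value is less certain than those above. Nduf messages were higher in Het monosomes than in WT monosomes for 39 of 45 genes (86.7%, against 53.1% of all probes), with a median of 0.64 against 0.10. At the study's threshold 12 were higher and 1 was lower (26.7% and 2.22%, against 17.2% and 11.5%), and at an unadjusted limma p under 0.05 the counts were 21 and 1 (46.7% and 2.22%, against 19.8% and 13.2%). The 1 gene with an adjusted p under 0.05 was Ndufb6, a membrane-arm subunit, among 0.395% higher and 0.104% lower of all probes. Blood and immune cell markers were lower in the same Het arrays, as given above. So were 6 of 7 slow-fibre markers (median -0.75, summed log2 level 13.2 to 13.6 in Het and 13.3 to 15.0 in WT) and 3 of 4 tested adipocyte markers (median -0.67, 11.93 to 11.96 against 12.02 to 12.70), and the part of either was not tested. Without WT monosome 2, the array that stood apart, 7 were higher and none was lower (against 3.69% and 2.57% of all probes), none had an adjusted p under 0.05, and the median was 0.58. Without WT monosome 1 the counts were 17 higher and 2 lower (against 32.7% and 23.1%), and without Het monosome 1 they were 7 and 0 (against 8.38% and 4.8%).

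Ndufb6 was 9.59 and 8.94 in WT and 10.99 and 10.58 in Het, a difference of 1.52 (SE 0.30, limma adjusted p = 0.0451), and it was 1.20 without WT monosome 2. Ndufc1, a small membrane-arm subunit, was 13.37 and 11.96 in WT and 15.14 and 14.30 in Het, a difference of 2.05 (limma adjusted p = 0.0541). Ndufa6 of the peripheral arm was 11.53 and 10.75 against 12.80 and 12.46, a difference of 1.49 (limma adjusted p = 0.052). Ndufaf4 had the highest difference, 2.33, but WT monosome 2 was at 4.96 and not well above background there, WT monosome 1 was at 9.26 and Het was at 9.61 and 9.27; without WT monosome 2 the difference was 0.18. Ndufa4 (1.44), Ndufaf6 (1.42), Ndufb9 (1.25) and Ndufc2 (1.24) completed the 8 highest that passed. Without WT monosome 2, Ndufa4, Ndufaf6 and Ndufc2 were 0.58, 0.93 and 0.70, below the threshold, and Ndufc1 was 1.34. The lower gene was Ndufaf5, at 12.77 and 14.49 in WT and 11.91 and 12.43 in Het (-1.45, limma adjusted p = 0.129). It was -0.59 without WT monosome 2, below the threshold, and -2.31 without WT monosome 1. Of the core subunits 4 of 7 were above 0 and none passed, with Ndufs1 at 0.93, Ndufv2 at 0.71, Ndufs8 at 0.58 and Ndufv1 at -0.51. Ndufs4 was at 0.63. Ndufa9 was the third lowest of all members at -0.44, or -0.16 without WT monosome 2. Genotypes did not overlap for 29 genes higher and 2 lower (64.4% and 4.44%, against 26.8% and 23.7% of all probes), with 2 arrays each. The tested nuclear genes of complexes II to V had a median of 0.73, with 12 of 37 higher and none lower at the threshold.

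**Figure D5:**
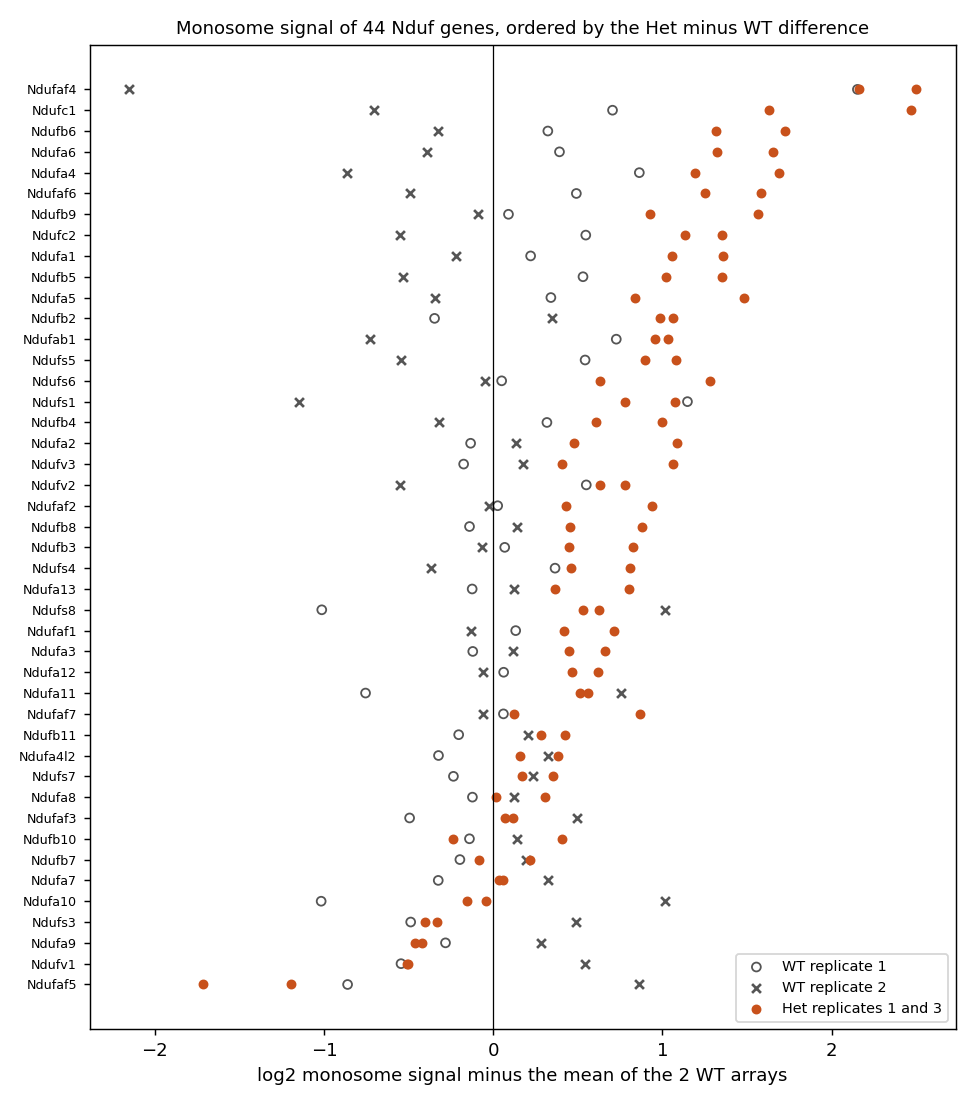
Log2 monosome signal of 44 Nduf genes on each of 4 arrays, minus the mean of the 2 WT arrays of that gene, ordered from the highest Het minus WT difference at the top. For Ndufaf4 the WT replicate 1 point lies at the Het points and WT replicate 2 far to the left, and for Ndufb6 both Het points lie right of both WT points.

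The polysome signal was set against the monosome signal in the 4 mice with both. The ratio was above 0 for 35 of 45 genes (against 56.6% of all probes), with a median of 0.74 against 0.17, and 15 were higher and none was lower at the study's threshold (33.3% and 0%, against 13.8% and 8.25% of all probes), or 9 higher without Het mouse 3 (against 9.68%). No gene had an adjusted p under 0.05 (0% of all probes, smallest adjusted p = 0.0551), and 26 were higher and 4 lower at an unadjusted p under 0.05 (57.8% and 8.89%, against 24.6% and 16.5%). The count with an adjusted p depended on the setting, as did that of all probes. It was 27 higher and 4 lower in the authors' table, against 15.7% and 10.4% of all probes, and without WT mouse 1 there were 29 higher and 4 lower, against 31.9% and 17.8%. All 7 core subunits had a mean ratio above 0 and were above 0 in all 4 mice, from 0.75 for Ndufs7 to 1.73 for Ndufv1. Ndufv1 was at 1.79 and 0.77 in WT mice 1 and 2 and at 2.13 and 2.23 in Het mice 1 and 3. Ndufs4 was among the most even, at 1.49 and 1.55 in WT and 1.19 and 1.41 in Het. Ndufc2 (1.65) and Ndufa9 (1.51) were the next highest after Ndufv1. Ndufa3 (-0.88), Ndufv3 (-0.87) and Ndufaf5 (-0.83) were the lowest, with Ndufa3 at -0.19 and -0.41 in WT and -1.43 and -1.50 in Het. For Ndufv3 this rests on the probe, since the one at base 1164 gave 0.71 and the one at base 213 gave -0.85. All 7 complex I messages of mitochondrial DNA had a ratio below 0 here, with a median of -3.24.

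Against whole muscle, the monosome signal of the 45 genes had a median ratio of -0.27 (-0.10 over all probes), with 19 above and 26 below 0 (45.7% of all probes were above). At the study's threshold 4 were higher and 7 lower (8.89% and 15.6%, against 7.99% and 10.1%), but 1 higher and 2 lower without Het mouse 1 (against 1.15% and 4.39%) and 2 and 2 without Het mouse 3 (against 2.54% and 6.61%). The core subunits were below 0 in 7 of 7, from -0.03 (Ndufs7) to -1.87 (Ndufs8), and Ndufs8 was at -3.18 and -1.20 in WT and -1.55 and -1.53 in Het. The highest were Ndufa3 (1.54), Ndufa2 (1.38) and Ndufaf5 (1.19). The lowest after Ndufs8 were Ndufa10 (-1.62) and Ndufs1 (-1.40), and Ndufs1 was at -0.48 and -3.11 in WT mice 1 and 2 and -0.94 and -1.09 in Het mice 1 and 3. Without WT mouse 2 Ndufs1 was at -0.75. The ratios of WT mouse 2 rest on WT monosome 2, and without that mouse the median over the 45 genes was -0.05.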

How the data were processed

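RNA from whole muscle, polysomes and monosomes was hybridised to 16 single-colour arrays. Per the file headers, the deposited intensity values came from Agilent Feature Extraction 11.0.1.1, which subtracted background and removed spatial trends within each array, with probe positions on mm9. The authors also deposited a log2 table, quantile normalized between arrays, which served as an alternative. Here the processed intensities were taken to log2, outlier spots were dropped, spots of a probe were averaged, and arrays were quantile normalized over 12 arrays (whole muscle and polysomes) or all 16 (results with monosomes). Levels of the 2 normalizations are not set side by side. Probes were tested if all arrays of 1 group or more measured them well above background.

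Comparisons between genotypes of one RNA kind used limma 3.58.1 (R 4.3.3), p-values were adjusted by Benjamini-Hochberg across the probes tested, and ratios were taken within each mouse. The design text states that each mouse gave all its RNA kinds, so a replicate number pairs arrays within a genotype, where deviations of polysome and whole-muscle arrays of one mouse correlated at 0.046 to 0.261 in WT and 0.173 to 0.481 in Het. Between genotypes the numbers did not pair samples (-0.325 to 0.446 in polysomes). Exact permutation tests were 2-sided. The scripts were tested on simulated data.

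The genes and lists were chosen with earlier results of these data known. Named with values were the core subunits, Ndufs4, in each Het minus WT comparison the genes past the study's threshold (the 8 largest if more) and the 3 highest and 3 lowest, in polysome ratios the 3 highest and 3 lowest means over 6 mice, and genes whose probes differed in sign. Other names were chosen after their values were seen. Role groups were assigned by hand. The values of 1 gene are not reported here on their own, though counts and medians include it. The number of arrays limits the precision of every value.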

Additional observations from a re-analysis of the deposited data

Results flagged for a closer look

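Loading of Ndufaf5, which acts on Ndufs7 in assembly, was below 0 in all 3 Het mice and above 0 in all 3 WT mice. The difference was -1.54 on the log2 scale (limma adjusted p = 0.11). The gene was picked for differing between genotypes, so the split is not separate support. At the study's threshold 4.44% of the Nduf genes were lower in loading, against 7.19% of all probes. Het was lower without overlap for 17.8% of the Nduf genes and 11.7% of all probes. The value rests on the used probe, with a mean log2 signal of 12.04. Another probe of the same transcript, at base 2646, had 2.51 and was not tested.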

How the results depend on the processing

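The counts and medians of the 45 genes gave 300 alternative values close to those reported, 56 weaker, 28 stronger and 12 moved, and single named genes gave 1185, 141 and 26, with 42 that changed sign. The cause of each change was not tested. Below, a called gene is one past the study's threshold, and an adjusted call is one with an adjusted p under 0.05. With 75th percentile scaling the loading median was -0.14, WT polysome ratios had 7 called genes, 10 adjusted calls and a median of 0.30, Het ratios had 0, 2 and 0.14, monosomes had 0 adjusted calls and the polysome to monosome ratio had 20. Of all probes, 8.67% were then called higher and 13.1% lower in WT ratios, and 4.96% and 8.07% in Het ratios. Adjusted calls were 11.2% and 12.6% in WT ratios, 3.59% and 6.55% in Het ratios and 15.6% and 9.56% in the polysome to monosome ratio. In the authors' table there were 1 adjusted call in loading, 0 called genes in polysomes, 12 adjusted calls in monosomes, 8 called genes and a median of 0.44 in WT ratios, 22 adjusted calls in Het ratios and 31 in the polysome to monosome ratio. Of all probes, 0.893% were called higher and 0.454% lower in polysomes there, and 2.28% and 5.19% in WT ratios. The polysome to monosome ratio had 15.7% and 10.4% with an adjusted call. Normexp background gave 2 adjusted calls in loading, 0 called genes in polysomes, and 9, 22 and 31 adjusted calls in monosomes, Het ratios and the polysome to monosome ratio. Of all probes, adjusted calls were then 0.262% higher and 1.87% lower in loading and 2.51% and 0.854% in monosomes. They were 7.37% and 7.41% in Het ratios and 15.9% and 9.03% in the polysome to monosome ratio. In polysomes 0.818% and 0.434% were called. Keeping only probes well above background on every array gave 4 called genes and 1 adjusted call in loading and 5, 18 and 30 adjusted calls in the same 3 results, and no filter gave 4 in monosomes and 1 in Het ratios. Of the probes above background on every array, 4.32% were called higher and 7.66% lower in loading. Adjusted calls among them were 28% and 23.5% in the polysome to monosome ratio. With no filter they were 0.344% and 0.236% in monosomes and 0.09% and 0.367% in Het ratios. Over all probes the shares with an adjusted p moved too: in loading to 0.353% higher and 1.88% lower in the authors' table and 0.61% and 4.69% with probes above background on every array, in monosomes to 3.1% and 0.953% and to 1.31% and 0.339%, and in Het ratios to 6.86% and 7.53% and to 10.1% and 12.2%. Averaging the probes of a gene gave a WT ratio median of 0.46 and 12 adjusted calls in the polysome to monosome ratio, against 6.23% higher and 2.41% lower of all genes.

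With slide as a term there was 1 called gene in loading and 1 in polysomes, 12 adjusted calls in WT ratios, 0 in Het ratios and 27 in the polysome to monosome ratio, and 6 called genes in the monosome to whole-muscle ratio. Of all probes, 3.96% were then called higher and 6.73% lower in loading, and 2.65% and 0.959% in polysomes. The monosome to whole-muscle ratio had 3.69% and 11.2% called. Adjusted calls were 5.48% and 6.7% in WT ratios, 0.419% and 1.11% in Het ratios and 19% and 14.5% in the polysome to monosome ratio. Each slide held 1 monosome array per genotype and a single array in 1 arm of every other comparison, assumed to vary like the other groups, and ratios there set different mice against each other. Within slide 1 called genes numbered 0 in loading, 0 in polysomes, 1 in monosomes, 6 in WT ratios, 2 in Het ratios and 9 in the polysome to monosome ratio, adjusted calls were 0 in monosomes, WT ratios and Het ratios, and the medians were 0.14 in loading, 0.42 in WT ratios and 0.58 in Het ratios. Within slide 2 there was 1 called gene in loading and 1 in polysomes, the loading median was -0.20, and adjusted calls were 11 in monosomes (WT monosome 2, which stood apart, against 1 Het array, where 28.6% of all probes were called higher), 0 in WT and Het ratios, 23 in the polysome to monosome ratio (27.5% of all probes higher, 11.9% lower) and 19 in the monosome to whole-muscle ratio (17.5% and 30.1%). With array brightness as a term there was 1 called gene in loading and 0 in either monosome ratio, adjusted calls were 0 in monosomes, 3 in WT ratios and 0 in Het ratios, and the polysome to monosome median was 0.89. Of all probes, 0.404% were then called higher and 3.66% lower in loading. The shares were 0.4% and 0.42% in the polysome to monosome ratio and 0.573% and 0.301% in the monosome to whole-muscle ratio. Adjusted calls were 0.138% and 0.0593% in monosomes, 1.05% and 2.96% in WT ratios and 0% in Het ratios. The methods' t-test gave 0 called genes in polysomes, 1 in monosomes and 6 in the monosome to whole-muscle ratio, with 0 adjusted calls in monosomes, WT ratios and Het ratios. Of all probes, it called 1.3% higher and 0.868% lower in polysomes and 1.41% and 0.889% in monosomes. In the monosome to whole-muscle ratio it called 4.03% and 3.58%.

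With the replicate number as a replicate block between genotypes, monosomes had 14 called genes (against 13.8% higher and 12.2% lower of all probes) and 0 adjusted calls. With no replicate block, adjusted calls were 18 in WT ratios (6.77% of all probes higher, 10.3% lower), 12 in Het ratios (4.41% and 4.84%), 28 in the polysome to monosome ratio (16.9% and 9.07%) and 21 in the monosome to whole-muscle ratio (10.8% and 14.2%). Leaving out each array or mouse in turn moved called genes between 1 and 4 in loading (4 without WT mouse 3), 1 and 4 in polysomes (4 without WT polysome 3), 7 and 19 in monosomes (7 without Het monosome 1 or WT monosome 2), 9 and 18 in the polysome to monosome ratio and 3 and 12 in the monosome to whole-muscle ratio (3 without Het mouse 1). It moved adjusted calls between 0 and 21 in monosomes (21 without WT monosome 1, when 32.4% of all probes were called higher and 21.1% lower), 4 and 19 in WT ratios (5 without WT mouse 1, 4 without WT mouse 3), 0 and 33 in the polysome to monosome ratio and 0 and 18 in the monosome to whole-muscle ratio (both highest without WT mouse 1, with 31.9% and 17.8%, and 11.2% and 25.5%, of all probes higher and lower), and left 0 in Het ratios. Medians ran from -0.068 to 0.059 in loading and 0.50 to 0.67 in WT ratios.

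Genes near 0 changed sign. In loading, Ndufs3 was -0.11 with 75th percentile scaling, -0.040 with normexp and -0.017 within slide 2. Ndufv2 was -0.015 with 75th percentile scaling, -0.18 within slide 2 and -0.091 with brightness, Ndufs4 was -0.051 with 75th percentile scaling and -0.47 within slide 2, and Ndufs7 was 0.11 in the authors' table and 0.019 with brightness. In whole muscle, Ndufs8 was 0.11 with 75th percentile scaling, 0.0050 with the slide term and 0.0051 within slide 1, while Ndufs7 was -0.057 in the authors' table and -0.092 with brightness. Ndufv1 was -0.078 in the authors' table, -0.087 within slide 2 and -0.054 with brightness, Ndufs1 was -0.042 and Ndufs4 -0.11 within slide 1, and Ndufb10 and Ndufs3 were -0.12 and -0.051 with brightness. In polysomes, Ndufs7 was 0.049 in the authors' table, 0.013 with normexp, 0.0070 with the slide term, 0.046 within slide 2 and 0.067 with brightness, and Ndufs4 was -0.038 within slide 2. In monosomes Ndufv1 was 0.035 within slide 1. Leaving out 1 array or mouse gave ranges across 0 for Ndufs4 (-0.068 to 0.24) and Ndufv2 (-0.018 to 0.28) in loading, for Ndufa4l2 (-0.20 to 0.024), Ndufs8 (-0.050 to 0.028), Ndufs1 (-0.012 to 0.15), Ndufs7 (-0.017 to 0.18) and Ndufv1 (-0.015 to 0.16) in whole muscle, for Ndufs7 (-0.060 to 0.022) in polysomes and for Ndufv1 (-1.05 to 0.037) in monosomes.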

Other observations

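The assembly factors without an Nduf name had median Het minus WT differences of 0.93 in polysomes, 0.93 in loading and 0.99 in monosomes, beside 0.15, 0.03 and 0.64 for the Nduf genes. In whole muscle theirs was 0.09, beside 0.13. The monosome value leans on WT monosome 2, where 3 of 9 were well above background, and was 0.12 without it. In polysomes 8 of 9 tested were above 0 (against 53% of all probes), with 3 higher at the study's threshold (against 4.2%). Without WT polysome 2 the median was 0.51 and 1 was higher (against 2.32%). Without Het polysome 3, WT polysome 1 or WT polysome 3 the medians were 1.05, 1.06 and 1.23. In each of these 5 were higher (against 4.67%, 7.97% and 8.68% of all probes). In loading 8 of 9 were above 0 (against 60.1%) and 2 were higher (against 6.75%), Tmem126b (1.37) and Acad9 (1.04), both members of the complex that helps to assemble the membrane arm. Tmem126b loading was -1.40, -1.71 and -0.99 in WT and -0.13, -0.01 and 0.15 in Het, with no overlap (limma adjusted p = 0.111). Without WT mouse 2 the loading median was 0.43, with 7 of 9 above 0 and 1 higher. That mouse, whose polysome array stood apart, had the lowest loading of Acad9 (-1.68), Tmem186 (-1.98), Tmem70 (-2.45) and Aifm1 (-1.84).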
